A study of Mus musculus with 12 samples.

Results

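Dendritic cells that mature switch on a shared set of genes, and 10 of these are described here in splenic dendritic cells and B cells of the mouse: the chemokine genes Ccl22, Ccl17 and Ccl5, the cytokine genes Il12b and Il15, the surface protein gene Cd83, the actin-bundling protein gene Fscn1, and the regulators Socs2, Cacnb3 and Relb. They were taken by gene symbol from a table of raw counts of 28188 genes, in which all 10 had a row. The libraries were poly(A)-selected RNA from NOD.Idd2 dendritic cells, NOD dendritic cells, NOD.Idd2 B cells and NOD B cells, 3 of each and 12 in all, from mice 12 weeks old. NOD mice develop autoimmune diabetes spontaneously and are the reference strain. NOD.Idd2 mice have the NOD background with the Idd2 diabetes susceptibility locus derived from B10 mice. The NOD background is thus common to all groups, and whether the strains also differ outside that locus was not tested. No agent that matures dendritic cells is named in the labels, and they do not say whether the 3 libraries of a group came from separate animals, so the p-values rest on the spread among these libraries, which may be technical.

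Immature dendritic cells take up antigen in the tissue. On maturing they leave for the T cell zone of lymphoid organs, a move guided by the chemokine receptor Ccr7, and raise the costimulatory proteins Cd40, Cd80 and Cd86 with chemokines and cytokines that draw and instruct T cells. NF-kB transcription factors, among them the heterodimer of Relb with the processed product of Nfkb2, are known drivers of this change, and a steady-state version of it also occurs without infection.

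The dendritic cell libraries held 8663421 to 30337812 counts and the B cell libraries 40344883 to 44632276. The lowest total belonged to NOD.Idd2 dendritic cell replicate 3, with 18120 detected genes against 20493 or more in every other library. Libraries of a group always differed by more than counting noise, with a chi-square per gene of 3.28 or more. In B cells it was 41.2 to 47.1 for replicate 3 against replicates 1 and 2 of its group. Replicates 1 and 2 differed by 8.48 in NOD.Idd2 and 7.93 in NOD B cells. The labelled cell types matched their defining transcripts: Itgax, the integrin Cd11c, averaged 2039 ± 117 CPM, read counts scaled to library size, in NOD.Idd2 and 2118 ± 153 CPM in NOD dendritic cells, against 2.89 ± 0.487 and 2.92 ± 0.185 CPM in NOD.Idd2 and NOD B cells (SD, n = 3 each). Cd79a, a chain of the B cell receptor complex, averaged 2.63 ± 0.911 and 4.12 ± 2.83 CPM in NOD.Idd2 and NOD dendritic cells, against 1680 ± 125 and 1561 ± 111 CPM in the B cells (SD, n = 3 each). The 2 cell types also differed in sex. Xist, transcribed from the inactive X chromosome, had 1 to 4 counts in each dendritic cell library and 1560 to 2103 CPM in the B cell libraries. The Y-linked Ddx3y had 235 to 306 CPM in the dendritic cell libraries and no counts in the B cell libraries. Every difference between dendritic cells and B cells below is therefore also one between libraries of male and of female pattern, and cell type and sex cannot be told apart. In these bulk libraries a smaller share of expressing cells and less RNA per cell cannot be told apart either.

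Of the 10 genes, 5 had an entry in the RefSeq promoter table for GRCm38.p6, with 250 bases before the start site examined: Fscn1, Ccl22, Ccl17, Il12b and Cacnb3. Each was searched on both strands for a core of NF-kB sites (GGGA, 4 bases of any kind, CC), a core of interferon response elements (GAAA, 2 bases of any kind, GAAA) and a core of STAT5 sites (TTCNNNGAA). The motifs are held by 17.6%, 2.98% and 7.02% of 32851 promoters in the table. The promoters with a match are shown because they set the neighbouring chemokine genes Ccl22 and Ccl17, which stood far apart in level in dendritic cells, beside Cacnb3, which was nearly silent in B cells. Capitals mark the match, an NF-kB core on the minus strand in Ccl22, a STAT5 core in Ccl17 and an NF-kB core in the second Cacnb3 promoter. A match describes these letters and is not a measured binding site, none overlaps another match, and Fscn1, Il12b and the first Cacnb3 promoter held none of the 3 motifs in this window.
Ccl22 (chr8:94745434-94745683, plus strand): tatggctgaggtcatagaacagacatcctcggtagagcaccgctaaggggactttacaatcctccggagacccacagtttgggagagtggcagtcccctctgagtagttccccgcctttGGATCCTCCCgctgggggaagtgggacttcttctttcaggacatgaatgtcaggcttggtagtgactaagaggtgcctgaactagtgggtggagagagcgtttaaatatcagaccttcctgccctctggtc
Ccl17 (chr8:94810203-94810452, plus strand): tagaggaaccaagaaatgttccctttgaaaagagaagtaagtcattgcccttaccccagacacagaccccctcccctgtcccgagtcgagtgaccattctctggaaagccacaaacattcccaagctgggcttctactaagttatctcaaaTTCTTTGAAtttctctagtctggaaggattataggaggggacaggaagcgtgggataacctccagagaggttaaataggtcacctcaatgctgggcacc
Cacnb3 (chr15:98634517-98634766, plus strand): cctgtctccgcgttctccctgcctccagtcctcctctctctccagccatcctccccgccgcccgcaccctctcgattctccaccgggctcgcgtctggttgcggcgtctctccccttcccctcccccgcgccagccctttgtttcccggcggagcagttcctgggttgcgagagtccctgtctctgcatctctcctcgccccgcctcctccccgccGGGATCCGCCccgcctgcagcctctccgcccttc

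The first comparison asked how the genes differed between the cell types in each strain. All 9 genes that could be tested were higher in dendritic cells than in B cells in both strains, where 36.7% of 16588 genes tested were higher in NOD.Idd2 and 37.7% in NOD. Between dendritic and B cells, 77.3% of genes tested in NOD.Idd2 and 77.6% in NOD had groups that did not overlap, as did all 9 of these. The median log2 difference over the 9 was 5.40 in NOD.Idd2 and 4.79 in NOD, against -0.06 and -0.04 over all genes tested. Il12b and Il15 had too few counts in B cells to be tested there. Cacnb3, at 0.0688 to 0.350 CPM in B cells, was tested there but passed the filter over all 12 libraries only through dendritic cells. Il12b, Il15 and Cacnb3 thus entered this comparison through the dendritic cell libraries, so the filter largely set their direction. For these genes the count of 9, the lack of overlap and the median are a description and not support. Fscn1, Socs2 and Cacnb3 were nearly silent in B cells, Relb was expressed in both, and Cd83 was about as abundant in B cells as in dendritic cells. Ccl17 was too low in every library to be tested. The tests were contrasts of edgeR's quasi-likelihood test over all 12 libraries, with Benjamini-Hochberg adjustment over all genes, and log2 differences are dendritic cells minus B cells.

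**Figure D1:**
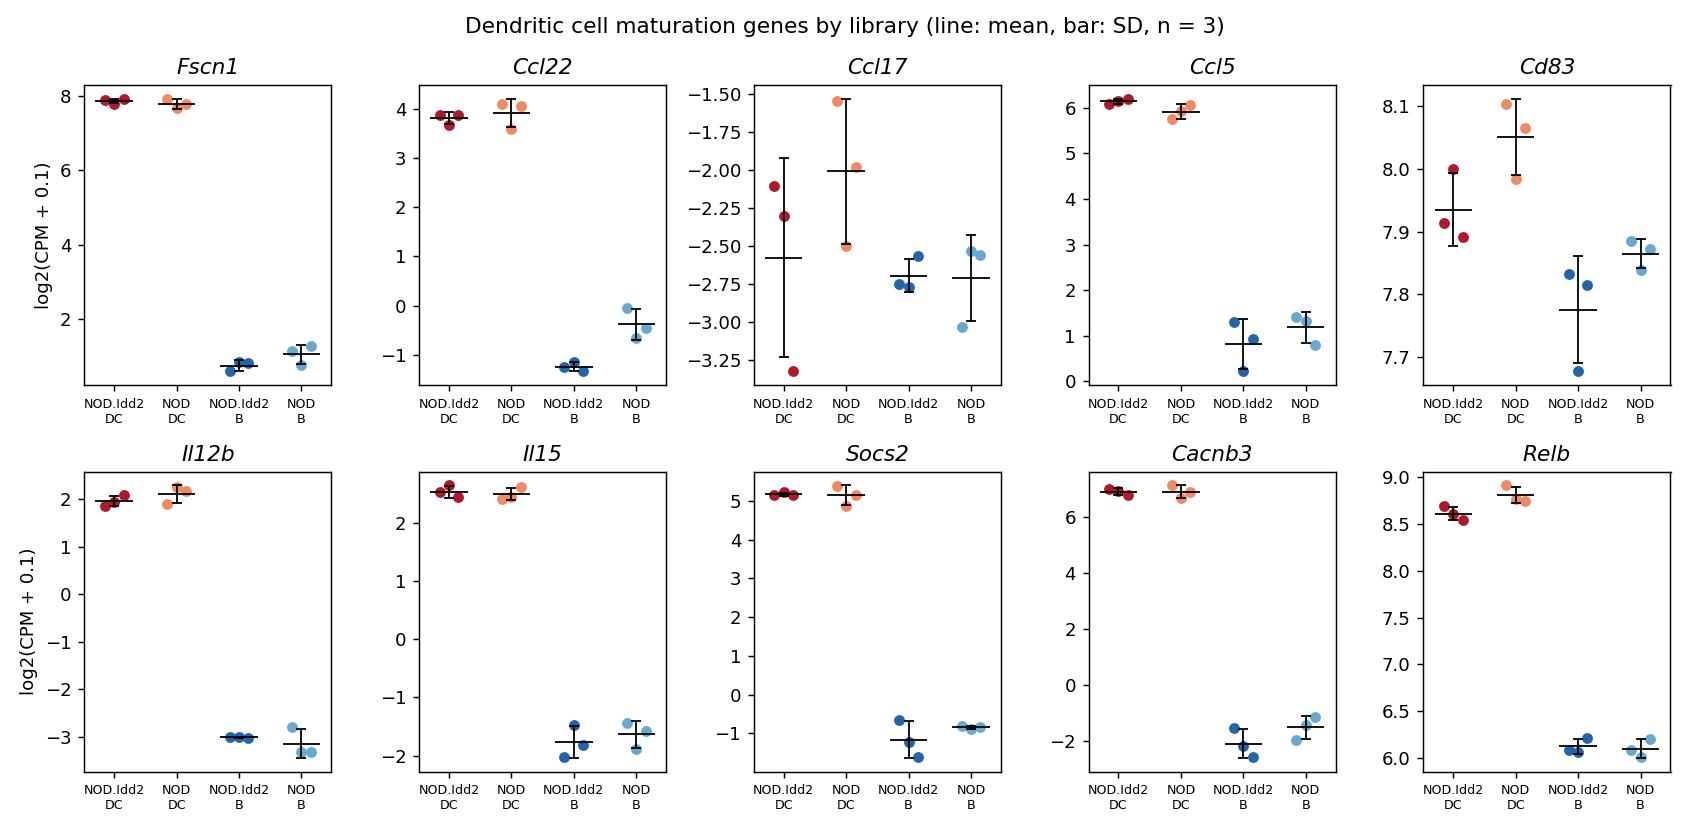
Level of each gene in every library, as log2(CPM + 0.1) on axes that differ between genes and do not start at 0; points are libraries, lines means and bars SD (n = 3). In 9 genes every dendritic cell point lies above every B cell point of the same strain, for Cd83 by a small margin (237 CPM against 228 CPM at the closest in NOD.Idd2), while Ccl17 stays at a few counts throughout.

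Ccl22 and Ccl17 are chemokines that bind the receptor Ccr4 and attract regulatory and helper T cells. Their genes lie on chromosome 8, Ccl22 at 94745590 to 94751699 and Ccl17 at 94810453 to 94812036, both on the plus strand, with 58753 bases between them (GRCm38, GENCODE). Ccl22 had 14.7, 12.6 and 14.6 CPM in the 3 NOD.Idd2 dendritic cell libraries and 17.1, 11.9 and 16.7 CPM in NOD dendritic cells, against 0.318, 0.353 and 0.298 CPM in NOD.Idd2 B cells and 0.872, 0.536 and 0.629 CPM in NOD B cells. The dendritic cells of the strains overlapped, and the B cells of the strains did not. Ccl22 was higher in dendritic cells by 5.40 (SE 0.22) on the log2 scale in NOD.Idd2, edgeR adjusted p = 1.58e-10. In NOD the difference was 4.49 (SE 0.20), adjusted p = 3.59e-10 by the same test.

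Ccl17 gave 3, 3 and 0 counts in the NOD.Idd2 dendritic cell libraries and 6, 2 and 4 in NOD dendritic cells, against 2, 2 and 3 counts in NOD.Idd2 B cells and 1, 3 and 3 in NOD B cells. The count of 0, in replicate 3, allows up to 0.335 CPM. Depth-corrected, the summed counts of dendritic cells over B cells had a ratio of 1.79 in NOD.Idd2, with a 95% counting interval of 0.497 to 6.23, and of 2.88 in NOD, with an interval of 1.05 to 8.63. Intervals and limits of this kind cover counting error only. The neighbouring chemokine genes thus stood far apart in level: per kilobase of exon, NOD.Idd2 dendritic cells averaged 6.01 CPM of Ccl22 and 0.153 CPM of Ccl17, and NOD dendritic cells 6.54 and 0.307 CPM.

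Ccl5 is a chemokine for T cells, monocytes and natural killer cells, and is itself abundant in activated T and natural killer cells. The gene lies on chromosome 11 at 83525778 to 83530518, minus strand. It had 67.4, 70.6 and 73.6 CPM in NOD.Idd2 dendritic cells and 53.8, 61.3 and 66.9 CPM in NOD dendritic cells, against 2.35, 1.06 and 1.79 CPM in NOD.Idd2 B cells and 2.57, 2.41 and 1.63 CPM in NOD B cells. Per kilobase of exon it was the most abundant of the 3 chemokines in every group. The log2 difference between the cell types was 5.34 (SE 0.21) in NOD.Idd2 and 4.79 (SE 0.20) in NOD, edgeR adjusted p = 8.55e-11 and 1.65e-10. Its level can be read beside the markers of cells that also make it. The 13 T cell markers summed to 79.0 to 87.5 CPM in NOD.Idd2 and 69.1 to 87.1 CPM in NOD dendritic cells, against 96.9 to 161 and 111 to 126 CPM in the B cells. The 10 natural killer markers summed to 158 to 174 CPM in NOD.Idd2 and 143 to 176 CPM in NOD dendritic cells, most of it Klrk1 at 152 ± 5.46 and 147 ± 14.9 CPM (SD, n = 3 each), while Ncr1 averaged 1.55 and 0.891 CPM. In B cells the natural killer sum was 21.5 to 36.2 CPM in NOD.Idd2 and 31.8 to 44.2 CPM in NOD. Gene by gene the natural killer list ran the other way. Of the 10 markers, 1 was higher and 2 lower in dendritic cells in NOD.Idd2, and 1 higher and 7 lower in NOD. The median log2 differences were -0.65 and -1.50. No marker of either list was at 0 throughout a group, and their part in the Ccl5 level was not tested.

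Il12b encodes the subunit shared by the cytokines IL-12 and IL-23, with which dendritic cells direct T helper responses. The gene lies on chromosome 11 at 44400063 to 44414033, plus strand. It had 3.53, 3.75 and 4.13 CPM in NOD.Idd2 dendritic cells and 3.61, 4.67 and 4.38 CPM in NOD dendritic cells. In B cells it had 1, 1 and 1 counts in NOD.Idd2 and 2, 0 and 0 counts in NOD, where a count of 0 allows up to 0.0731 CPM in replicate 2 and 0.0699 CPM in replicate 3. The summed counts were 157 times higher in dendritic cells in NOD.Idd2, with a counting interval of 53.2 to 769, and 272 times higher in NOD, with an interval of 74.7 to 2257.

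The gene of the partner subunit showed the reverse. Il12a, whose product joins that of Il12b to make IL-12, summed to 1 count over the NOD.Idd2 dendritic cell libraries and 6 over the NOD ones, against 24.0 to 26.9 CPM in NOD.Idd2 B cells and 24.0 to 29.4 CPM in NOD B cells. It was lower in dendritic cells in both strains, in NOD by 8.37 (SE 0.27) on the log2 scale, edgeR adjusted p = 1.50e-11. Il12a was too low to test within dendritic cells and entered this fit through the B cell libraries. The filter thus largely set its direction, and its difference and p are a description and not support. In NOD.Idd2 the ratio of summed counts, dendritic over B cells, was 0.000659 with a counting interval of 1.67e-05 to 0.00368. Il23a, the partner in IL-23, summed to 1 count in NOD.Idd2 and 1 count in NOD dendritic cells, against 6 and 2 counts in NOD.Idd2 and NOD B cells; it was picked for mention after its values were seen. Transcripts of both subunits of IL-12 were therefore not abundant together in any group.

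Il15 encodes a cytokine that dendritic cells present on its receptor chain Il15ra to natural killer and memory T cells. The gene lies on chromosome 8 at 82331632 to 82403222, minus strand. It had 5.70, 6.19 and 5.36 CPM in NOD.Idd2 dendritic cells and 5.27, 5.36 and 6.04 CPM in NOD dendritic cells, against 0.147, 0.259 and 0.183 CPM in NOD.Idd2 B cells and 0.268, 0.170 and 0.233 CPM in NOD B cells. The cell types were apart by 4.83 (SE 0.22) in NOD.Idd2 and 4.62 (SE 0.21) in NOD on the log2 scale, edgeR adjusted p = 4.32e-10 and 5.11e-10. Il15ra averaged 18.8 ± 0.659 and 20.1 ± 1.05 CPM in NOD.Idd2 and NOD dendritic cells, against 6.49 ± 0.595 and 6.16 ± 0.448 CPM in the B cells (SD, n = 3 each); it too was picked after its values were seen.

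Cd83 is a surface protein used as a marker of mature dendritic cells, and B cells also carry it. Its gene is on chromosome 13 at 43784775 to 43803132, plus strand. It had 241, 256 and 237 CPM in NOD.Idd2 dendritic cells and 275, 253 and 268 CPM in NOD dendritic cells, against 228, 205 and 225 CPM in NOD.Idd2 B cells and 236, 229 and 234 CPM in NOD B cells. In each strain the dendritic cells lay just above the B cells without overlap, while the dendritic cells of the strains overlapped. Cd83 was 1.11-fold higher in dendritic cells in NOD.Idd2 and 1.15-fold higher in NOD, edgeR adjusted p = 0.0178 and 0.00304. In NOD.Idd2 the call was lost without dendritic cell replicate 2 (adjusted p = 0.0833) or without B cell replicate 2 (adjusted p = 0.0950).

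Fscn1 encodes fascin, which bundles actin into the long projections that give mature dendritic cells their name. Fscn1 maps to chromosome 5 at 142960343 to 142973185, plus strand. It had 236, 223 and 242 CPM in NOD.Idd2 dendritic cells and 245, 205 and 220 CPM in NOD dendritic cells, against 1.40, 1.67 and 1.65 CPM in NOD.Idd2 B cells and 2.08, 1.58 and 2.28 CPM in NOD B cells. The dendritic cells of the strains overlapped, as did the B cells. The cell types differed by 7.20 (SE 0.13) in NOD.Idd2 and 6.82 (SE 0.13) in NOD on the log2 scale, edgeR adjusted p = 7.09e-14 and 7.63e-14.

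Socs2 encodes an inhibitor of cytokine receptor signalling that is itself induced through STAT5. Socs2 maps to chromosome 10 at 95385362 to 95417180, minus strand. It had 35.2, 37.2 and 35.5 CPM in NOD.Idd2 dendritic cells and 42.1, 29.4 and 35.5 CPM in NOD dendritic cells, against 0.538, 0.330 and 0.229 CPM in NOD.Idd2 B cells and 0.470, 0.438 and 0.466 CPM in NOD B cells. The NOD dendritic cell libraries spanned those of NOD.Idd2. The log2 difference between the cell types was 6.60 (SE 0.20) in NOD.Idd2 and 6.28 (SE 0.20) in NOD, edgeR adjusted p = 8.54e-12 and 9.08e-12.

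Cacnb3 encodes a beta subunit of voltage-gated calcium channels. Its position is chromosome 15, 98630840 to 98644529, plus strand. It had 128, 122 and 109 CPM in NOD.Idd2 dendritic cells and 140, 103 and 119 CPM in NOD dendritic cells, against 0.245, 0.118 and 0.0688 CPM in NOD.Idd2 B cells and 0.157, 0.268 and 0.350 CPM in NOD B cells. At 817-fold in NOD.Idd2 and 468-fold in NOD, with log2 differences of 9.67 (SE 0.23) and 8.87 (SE 0.21), it had a larger fitted fold than the others of the 10 genes that were tested and had over 3 summed counts in B cells, while the counting interval of Il12b in NOD spans the fold of Cacnb3. The edgeR adjusted p was 7.38e-13 and 7.64e-13. Cacnb3 entered this fit through the dendritic cell libraries, so its fold and p are a description and not support. Cacna1d, which encodes a pore-forming subunit of such channels, ran the other way, with 3.89 ± 0.185 and 3.70 ± 1.13 CPM in NOD.Idd2 and NOD dendritic cells against 17.2 ± 1.27 and 17.2 ± 0.867 CPM in the B cells (SD, n = 3 each).

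Relb is the NF-kB subunit of the noncanonical pathway, and mice without it lack several dendritic cell populations. It maps to chromosome 7 at 19606217 to 19629438, minus strand. It had 412, 389 and 372 CPM in NOD.Idd2 dendritic cells and 482, 435 and 430 CPM in NOD dendritic cells, against 68.0, 67.02 and 73.9 CPM in NOD.Idd2 B cells and 67.8, 64.1 and 73.7 CPM in NOD B cells. Relb was 5.58-fold higher in dendritic cells in NOD.Idd2 and 6.61-fold higher in NOD, a log2 difference of 2.48 (SE 0.07) and 2.72 (SE 0.07), edgeR adjusted p = 4.73e-12 and 2.01e-12. Its partner Nfkb2 was higher by 0.30 (SE 0.05) and 0.26 (SE 0.05), adjusted p = 9.11e-05 and 0.000339.

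**Figure D2:**
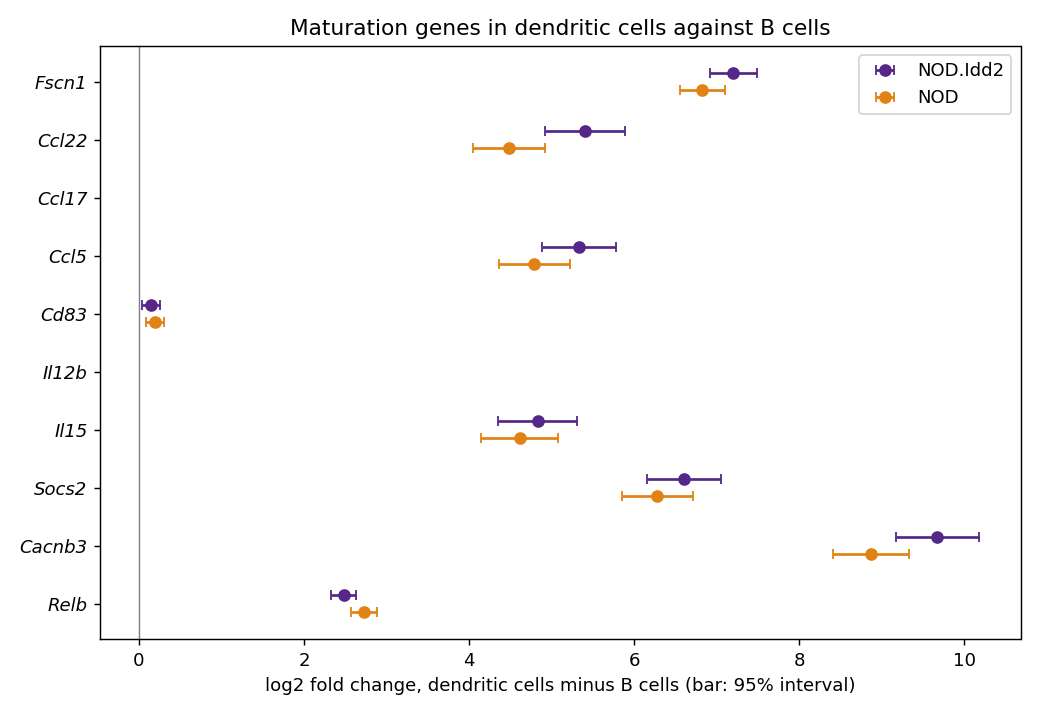
Log2 fold change of each gene, dendritic cells minus B cells, in NOD.Idd2 and in NOD, with 95% intervals from edgeR; Ccl17 was not tested and Il12b, with at most 3 summed counts in B cells, is not drawn. Cacnb3 lies farthest from 0, at 9.67 and 8.87, and Cd83 closest, at 0.15 and 0.20.

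Between genes, levels can be compared only per length of transcript. As mean CPM per kilobase of exon, NOD.Idd2 dendritic cells ran Relb 101, Cd83 95.2, Fscn1 77.7, Ccl5 73.5, Cacnb3 29.9, Ccl22 6.01, Socs2 3.77, Il15 2.54, Il12b 1.93 and Ccl17 0.153. The libraries overlapped between Relb and Cd83 and between Fscn1 and Ccl5, so neither pair is ordered beyond its spread. NOD dendritic cells gave the same order of means, with overlap between Fscn1 and Ccl5 and between Il15 and Il12b. B cells were led by Cd83 at 85.2 CPM per kilobase in NOD.Idd2 and 90.6 in NOD, followed by Relb at 17.9 and 17.6 and Ccl5 at 1.81 and 2.30, with the other 7 genes below 1. Dividing by the longest transcript instead moved 13 of the 40 ranks, among them Socs2, which then passed Ccl22 in dendritic cells of both strains.

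Other genes of the same program were read from lists chosen with earlier results of these data known. Of 36 further genes of the mature dendritic cell program, 29 were higher and 7 lower in dendritic cells than in B cells in NOD.Idd2, and 28 higher and 7 lower in NOD, where 38.9% and 38.7% of genes tested were lower, with median log2 differences of 1.52 and 1.66. Slco5a1, a transporter gene, averaged 99.8 ± 8.46 and 105 ± 6.25 CPM in NOD.Idd2 and NOD dendritic cells, against 1.66 ± 0.188 and 1.74 ± 0.325 CPM in the B cells (SD, n = 3 each). The costimulatory Cd80 was higher by 4.88 (SE 0.12) and 4.54 (SE 0.11), and Cd86 by 2.47 (SE 0.05) and 2.66 (SE 0.05), in NOD.Idd2 and NOD on the log2 scale. The 7 lower genes in each strain included Ccr7 and Cd40, which are central to the program. Ccr7 averaged 62.2 ± 3.43 and 70.2 ± 9.20 CPM in NOD.Idd2 and NOD dendritic cells, against 153 ± 15.2 and 143 ± 15.5 CPM in the B cells (SD, n = 3 each). Cd40 averaged 88.2 ± 5.38 and 95.02 ± 6.06 CPM in the dendritic cells, against 178 ± 3.99 and 190 ± 8.96 CPM in the B cells (SD, n = 3 each). Cd200 was lower by 2.99 (SE 0.08) in NOD.Idd2 and 3.01 (SE 0.08) in NOD. Lamp3, a lysosomal membrane protein gene named for dendritic cells, gave 4 counts in all in each group of dendritic cells, against 9.28 ± 1.22 and 9.16 ± 0.697 CPM in NOD.Idd2 and NOD B cells (SD, n = 3 each). Of the 36 genes, 35 could be tested within dendritic cells and 33 within B cells. The others entered this comparison through the cell type where they were higher, so the filter largely set their direction.

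Of 19 NF-kB pathway genes, 13 were higher and 5 lower in dendritic cells in NOD.Idd2, and 13 higher and 4 lower in NOD, with medians of 0.45 and 0.44. Nfkb1, the precursor of a canonical subunit, was higher by 1.03 (SE 0.05) in NOD.Idd2, and the kinase gene Map3k14, which activates the noncanonical pathway, by 1.09 (SE 0.05) in NOD. Traf1, an adaptor also counted in the program, was higher by 3.29 (SE 0.08) and 3.45 (SE 0.08), and Nfkbiz, a nuclear regulator, by 1.45 (SE 0.08) and 1.63 (SE 0.08). Traf3, which holds Map3k14 in check, was lower by 0.49 (SE 0.04) in NOD.Idd2 and 0.52 (SE 0.04) in NOD. Ikbkg was lower by 0.36 (SE 0.05) in NOD.Idd2 and 0.30 (SE 0.05) in NOD, and Birc3 by 0.30 (SE 0.05) and 0.34 (SE 0.05). Of 31 partners, receptors and relatives of the 10 genes, 27 could be tested, and 16 were higher and 5 lower in each strain. The chemokine Cxcl9 averaged 72.7 ± 3.63 and 79.8 ± 4.63 CPM in NOD.Idd2 and NOD dendritic cells, against 0.142 ± 0.0645 and 0.208 ± 0.0525 CPM in the B cells (SD, n = 3 each). Cxcl16 and the receptor gene Il12rb2 were higher as well, by 9.44 (SE 0.20) and 6.14 (SE 0.10) in NOD.Idd2 and by 8.59 (SE 0.18) and 6.12 (SE 0.10) in NOD. Ccr1 was lower in both. Of the 31 partners, 24 could be tested within dendritic cells and 20 within B cells. Cxcl9 and Cxcl16 were too low to test within B cells and entered this comparison through the dendritic cells. For them the filter largely set the direction, so their differences are a description. Immediate early genes, which respond to cell handling, summed to 2172 to 2940 CPM in NOD.Idd2 and 2268 to 3204 CPM in NOD dendritic cells, against 1041 to 1133 and 947 to 1300 CPM in the B cells, and their part in these differences was not tested.

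The second comparison, the study's own, asked whether the NOD.Idd2 and NOD strains differ within a cell type. In dendritic cells, 0 of the 9 genes tested passed the quasi-likelihood test of edgeR, fitted to the 6 dendritic cell libraries, where 1.29% of 14441 genes did. DESeq2 called 0 as well, and 3 of the 9 had an unadjusted p under 0.05 by edgeR, as did 1638 of all genes. In 2 of the 9, Ccl5 and Relb, the libraries of the strains did not overlap, as was so for 14.5% of genes tested. Log2 differences, NOD.Idd2 minus NOD, were above 0 in 4 of 9, with a median of -0.00238 against 0.000603 over all genes.

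Relb averaged 391 ± 20.04 CPM in NOD.Idd2 and 449 ± 28.4 CPM in NOD dendritic cells (SD, n = 3 each). The ratio was 0.875, a log2 difference of -0.19 (SE 0.06, 95% interval -0.32 to -0.06), with an edgeR unadjusted p of 0.00786 and an adjusted p of 0.194. Ccl5 averaged 70.6 ± 3.11 CPM in NOD.Idd2 and 60.7 ± 6.57 CPM in NOD dendritic cells (SD, n = 3 each), a difference of 0.22 (SE 0.08, 95% interval 0.04 to 0.39), with an unadjusted p of 0.0181 and an adjusted p of 0.297 by edgeR. These are the genes whose strains did not overlap, in opposite directions, and neither passed the adjustment. Without a filter on low counts both passed, Relb with an edgeR adjusted p of 0.0227 and Ccl5 with 0.0484, where 700 genes were called in place of 186. Cd83 averaged 245 ± 9.91 CPM in NOD.Idd2 and 265 ± 11.2 CPM in NOD dendritic cells (SD, n = 3 each), a difference of -0.11 (SE 0.05), edgeR adjusted p = 0.422.

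The other 6 tested genes had differences between -0.17 and 0.07, with adjusted p of 0.777 or more by edgeR. Fscn1, at 234 ± 9.91 CPM in NOD.Idd2 and 223 ± 20.4 CPM in NOD (SD, n = 3 each), differed by 0.07 (SE 0.08, 95% interval -0.09 to 0.24). Cacnb3, at 120 ± 9.64 and 121 ± 18.4 CPM in NOD.Idd2 and NOD, differed by -0.00238 (SE 0.10), and Socs2, at 36.0 ± 1.04 and 35.6 ± 6.37 CPM, by 0.02 (SE 0.11). For Il12b, at 3.80 ± 0.302 and 4.22 ± 0.550 CPM in NOD.Idd2 and NOD, the difference was -0.17 (SE 0.17). Ccl17, at 6 counts in NOD.Idd2 and 12 in NOD dendritic cells, had a depth-corrected ratio of 0.631 (counting interval 0.194 to 1.82), and no difference was detectable at this depth.

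**Figure D3:**
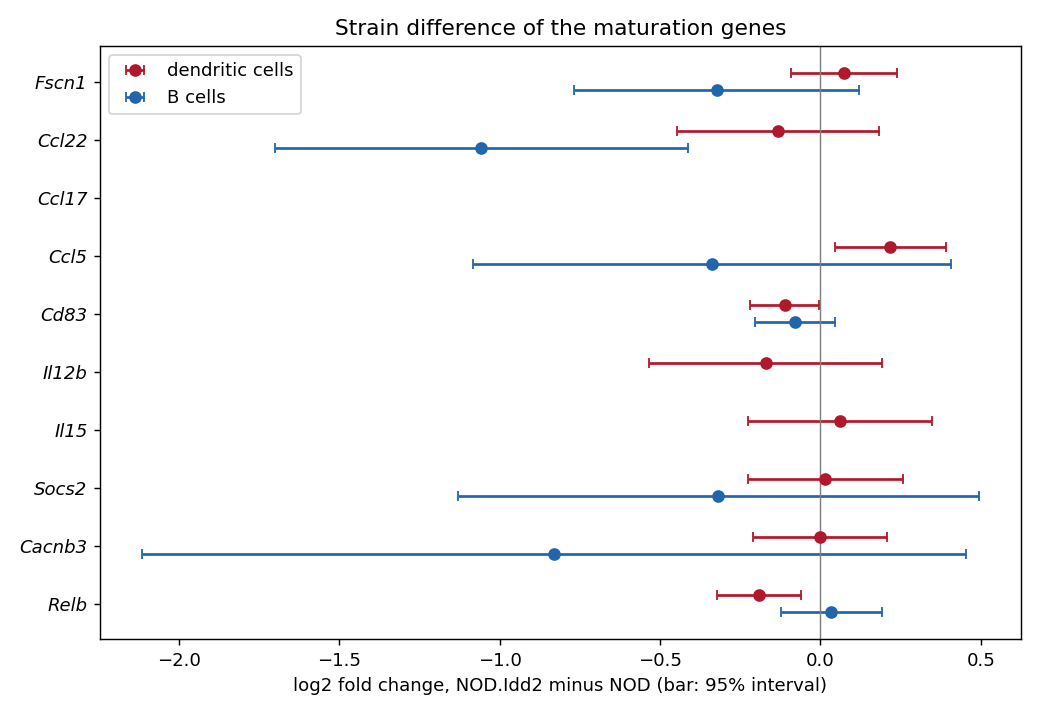
Log2 fold change of each gene, NOD.Idd2 minus NOD, in dendritic cells and in B cells, with unadjusted 95% intervals from edgeR; genes too low to test in a cell type have no point. In dendritic cells the points run from -0.19 (Relb) to 0.22 (Ccl5), and in B cells the widest interval belongs to Cacnb3 and the lowest point to Ccl22, at -1.06.

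Replicate libraries of a strain also differed from each other. NOD dendritic cell replicate 1 was the highest of its 3 for 6 of the 9 genes, Fscn1, Ccl22, Cd83, Socs2, Cacnb3 and Relb, and replicate 2 the lowest for 5, the same without Relb. Deviations of log2(CPM + 0.1) from the group mean ran from -0.33 to 0.25 in NOD and from -0.14 to 0.12 in NOD.Idd2. The shallow NOD.Idd2 replicate 3 was the highest of its group for 3 genes and the lowest for 4.

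**Figure D4:**
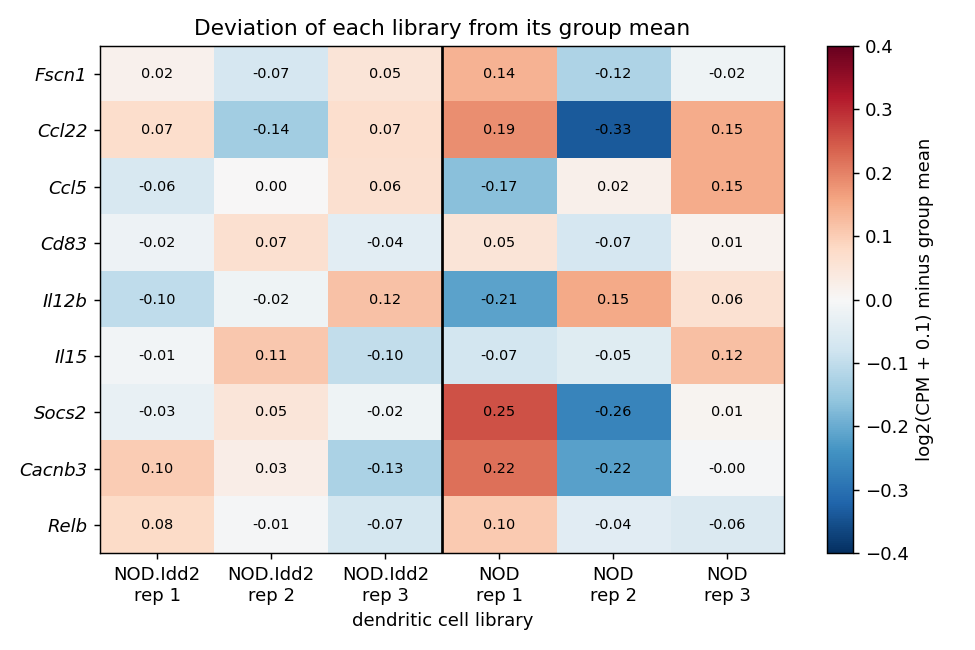
Deviation of each dendritic cell library from the mean of its own 3 libraries, in log2(CPM + 0.1), for the 9 genes with enough counts; red is above the mean and blue below. NOD replicate 1 is above its mean for 6 genes and NOD replicate 2 for 2, with the lowest value at Ccl22 (-0.33), while each NOD.Idd2 library is above for 4 or 5.

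Of the 35 further program genes tested in dendritic cells, 0 were higher and 1 lower in NOD.Idd2. That gene was Pdcd1lg2, a ligand of the inhibitory receptor PD-1, with 32.7 ± 1.10 CPM in NOD.Idd2 and 40.3 ± 2.35 CPM in NOD dendritic cells (SD, n = 3 each) and a log2 difference of -0.30 (SE 0.06), edgeR adjusted p = 0.0477. The call was lost without any one of the libraries other than NOD replicate 1, with adjusted p of 0.0611 to 0.244, in the fit of all 12 libraries (0.0595), with the replicate block (0.0560) and with limma-voom (0.0515). Ccr7 differed by -0.17 (SE 0.09), Cd40 by -0.10 (SE 0.06), Cd80 by -0.03 (SE 0.08) and Cd86 by -0.06 (SE 0.05), none of them passing. Of 19 NF-kB pathway genes 0 passed, with 5 above 0 and a median of -0.03, and Nfkb2 differed by -0.03 (SE 0.05).

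Markers of other cells were read beside these values. Of the natural killer markers 9 of 9 tested and of the T cell markers 12 of 13 were above 0 in NOD.Idd2, with medians of 0.49 and 0.21 and none passing the test. The 8 monocyte markers summed to 721 to 771 CPM in NOD.Idd2 and 453 to 651 CPM in NOD, with no overlap, 6 above 0 and 1 called, Ace, higher by 0.61 (SE 0.11), edgeR adjusted p = 0.0176; its call was lost without any one NOD.Idd2 library (adjusted p of 0.0800 to 0.121) and in the fit of all 12 libraries (0.0574). The macrophage sum was 921 to 992 CPM in NOD.Idd2 and 851 to 975 CPM in NOD, and 0 of 9 macrophage markers passed. The 9 neutrophil markers summed to 45.7 to 61.8 CPM in NOD.Idd2 and 65.7 to 75.4 CPM in NOD, while 4 of the 6 tested were above 0 with a median of 0.31. Mmp9 was the 1 called, lower by 0.53 (SE 0.07), edgeR adjusted p = 0.00293, but 0.113 in the fit of all 12 libraries. Within the conventional dendritic cell markers, Cadm1 of type 1 was lower by 0.69, and Mgl2 of type 2 higher by 0.63 and Dtx1 lower by 0.26, edgeR adjusted p = 0.00212, 0.000750 and 0.0208. The lists did not move as a whole with these genes. Of 10 type 1 markers 7 were above 0 (median 0.09), and of 11 type 2 markers 6 were (median 0.05). Cadm1 lies on chromosome 9 at 47530173 to 47857637, and whether the Idd2 locus reaches it was not tested. Dtx1 lost its call without any one NOD.Idd2 library or NOD replicate 2, with adjusted p of 0.0578 to 0.189. Of the remaining lists, 0 of 6 plasma cell, 0 of 6 plasmacytoid dendritic cell, 0 of 11 B cell, 0 of 9 general dendritic cell and 0 of 14 immediate early genes passed. The part of these cells in the strain values of Ccl5 and Relb was not tested.

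In B cells, 7 of the 10 genes had enough counts to test, and 0 of them passed, where 0.16% of 15011 genes did. DESeq2 called 0, and 1 of the 7 had an unadjusted p under 0.05 by edgeR, as did 961 of all genes. That gene was Ccl22, at 0.323 ± 0.028 CPM in NOD.Idd2 and 0.679 ± 0.174 CPM in NOD B cells (SD, n = 3 each), a ratio of 0.481 and a log2 difference of -1.06 (SE 0.27, 95% interval -1.70 to -0.41), edgeR unadjusted p = 0.00604 and adjusted p = 0.606. Ccl22 and Cd83 were the 2 of 7 genes whose strains did not overlap in B cells, as was so for 13% of genes tested. Cd83 averaged 219 ± 12.8 CPM in NOD.Idd2 and 233 ± 3.82 CPM in NOD B cells (SD, n = 3 each), a difference of -0.08 (SE 0.05), edgeR adjusted p = 0.863. Of the 7 differences 1 was above 0, that of Relb at 0.03 (SE 0.07), and the median was -0.32 against 0.00660 over all genes. The remaining 4, Fscn1 at -0.32 (SE 0.19), Ccl5 at -0.34 (SE 0.31), Socs2 at -0.32 (SE 0.34) and Cacnb3 at -0.83 (SE 0.54), stood on levels of 2.20 CPM or less. Il12b, at 3 counts in NOD.Idd2 and 2 in NOD, gave a ratio of 1.52 (counting interval 0.174 to 18.2), and Ccl17, at 7 counts in each strain, 1.01 with an interval of 0.304 to 3.39.

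Of markers that B cells should lack, 0 of 10 natural killer and 0 of 7 tested neutrophil markers had a difference above 0 in B cells, with median log2 differences of -0.43 and -1.03. The T cell markers had 11 of 13 above 0 and a median of 0.20, with sums that overlapped between the strains. The neutrophil sum was 7.45 to 10.1 CPM in NOD.Idd2 and 8.33 to 25.9 CPM in NOD B cells. The monocyte list had 1 of 8 above 0, while its sums of 165 to 185 CPM in NOD.Idd2 and 171 to 178 CPM in NOD overlapped. The 9 general dendritic cell markers, some of which B cells also express (Ciita and Irf8), summed to 2097 to 2446 CPM in NOD.Idd2 and 2163 to 2350 CPM in NOD B cells, with 1 of 8 tested above 0 and a median of -0.02. No gene of these lists passed in B cells. With the replicate number as a block, Gzma of the natural killer list was lower by 0.85 (edgeR adjusted p = 0.00605), Chil3 of the monocyte list lower by 1.84 (0.0202), Cadm1 lower by 1.40 (0.0464) and the macrophage gene Adgre1 higher by 0.46 (0.00145), and these 4 also passed with DESeq2. Of these 4, Cadm1 was lower in NOD.Idd2 dendritic cells as well, with a log2 difference of -0.69. The part of cells that carry such markers in the B cell levels of Ccl22 and the other low genes was not tested. Of the further program genes 0 of 33 passed, those with the smallest p being Cd80 at -0.39 (SE 0.13) and Samsn1 at -0.18, each with an edgeR adjusted p of 0.750. Of the NF-kB genes 0 of 19 passed, and of the partners 0 of 20.

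The last comparison tested the difference of the strain effects between the cell types, dendritic cells minus B cells, in the fit of all 12 libraries. It was called for 0 of 9 genes, where 0.109% of 16588 genes were called, by DESeq2 also for 0, and 2 of the 9 had an unadjusted p under 0.05 by edgeR, as did 1363 of all genes. Those were Ccl22, with a difference of 0.92 (SE 0.31) and an edgeR adjusted p of 0.440, and Relb, with -0.24 (SE 0.10) and 0.541. The 95% intervals were 0.25 to 1.59 for Ccl22 and -0.45 to -0.03 for Relb. No gene of the program, NF-kB or partner lists passed, and Pdcd1lg2, called in dendritic cells, had a difference of -0.39 (SE 0.09) with an edgeR adjusted p of 0.204.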

How the data were processed

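Poly(A)-selected RNA libraries of isolated splenic dendritic cells and B cells were made with a KAPA HyperPrep kit after Trizol extraction, per the labels' protocols. Alignment used STAR (version given as 0.12.2) and GRCm38, per the submitters' processing notes. How reads were counted, with what annotation and whether by strand is not given in the sources used here. Raw counts per gene symbol, deposited by the authors, were used, and their normalized table was not. Samples were grouped by their titles. The 10 genes and the 15 lists beside them were chosen with earlier results of these data known.

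CPM were TMM-scaled over all 12 libraries, and CPM per kilobase used GENCODE M21 exon lengths. Genes were kept by filterByExpr (minimum count 10, minimum total 15). The main test was the quasi-likelihood test of edgeR 4.0.16 in R 4.3.3, with Benjamini-Hochberg adjustment over all genes and a threshold of 0.05: strain effects on the 6 libraries of a cell type, the other contrasts on all 12. It was tested on simulated data drawn without a replicate effect, so that check does not cover B cell libraries that deviate together. The outcome of the check is not given here. Fold changes are group 1 over group 2 as named, and the SE was taken from the fold change and its F statistic. Count ratios carry exact 95% counting intervals, and a count of 0 allows 3 counts. No genes of the 10 overlap another annotated gene. All 10 genes were named, and from each list up to 4 called genes by smallest p in strain comparisons (with none called, those 2 of smallest p could be named) and up to 3 in each direction between cell types at 5 CPM or more, with Ccr7, Cd40, Cd80, Cd86, Nfkb2 and Il12a always. Genes outside this rule are label and sex checks, Il15ra, Il23a, Klrk1 and Ncr1. Results for some genes that it would name are not given.

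The labels give the strains the same replicate numbers and state no pairing. In B cells same-numbered libraries deviated together (correlations 0.701, 0.485 and 0.853, all above 0.1), though NOD.Idd2 replicate 1 also correlated at 0.494 with NOD replicate 2 and NOD.Idd2 replicate 2 at 0.428 with NOD replicate 1. In dendritic cells they did not (0.00441, 0.0411 and 0.0597). Alternatives were DESeq2 1.42.0, voom in limma 3.58.1, RLE factors, no filter, 1 CPM in 3 libraries, the replicate block, other sets of libraries in the fit, and leaving out each library. A B cell fit without both replicate 3 libraries was added after seeing the data.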

Additional observations from a re-analysis of the deposited data

How the results depend on the processing

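Over the 13 to 18 alternatives of each comparison no value that passed the test changed direction. In dendritic cells 115 of 117 strain values kept their side of the threshold, and with no filter on low counts the number of the 10 genes called was 2 in place of 0, Ccl5 at 0.22 and Relb at -0.19; 700 of all genes were then called against 186, a setting whose cause was not tested. The edgeR, voom or DESeq2 adjusted p over the alternatives ran from 0.0227 to 0.670 for Relb and 0.0484 to 0.744 for Ccl5. In B cells all 95 values kept their side, and in the difference of strain effects all 162. Uncalled values changed sign 8 times in dendritic cells and 2 times in B cells. Leaving out single libraries gave 0 genes called in each of these 3 comparisons. Between cell types it gave 8 to 9 in NOD.Idd2, where Cd83 was lost at 0.13 without dendritic cell replicate 2 and 0.10 without B cell replicate 2, and 9 in NOD. With the replicate block, 0 of the genes were called in dendritic cells, 0 in B cells and 0 in the difference, and 9 in each cell type comparison, so the block changed no call of the 10. Over all genes the dendritic cell count of 186 became 296 with DESeq2, 94 in the fit of all 12 libraries and 63 to 332 with a library left out. The B cell count of 24 became 122 with DESeq2, 156 with the block, 42 in the fit of all 12, 13 to 18 with a library left out and 46 without both replicate 3 libraries. That of the difference, 18, became 114 with DESeq2, 33 without a filter, 56 with the block and 7 to 19 with a library left out. Mean levels under RLE factors stayed within the SD in 40 of 40. Of the other named genes' values, 1977 kept their side, 21 lost and 26 gained a call. Depth limits Ccl17 in all groups and Il12b in B cells, where a few counts allow no test.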
